A study of Mus musculus with 2 samples.

Results

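The endoplasmic reticulum folding and stress genes are 42 genes, taken by gene symbol from the 32285 genes counted in single cells of mouse small intestine. All 42 were found, in 43 gene records, because Ddit3 is listed with a second identifier that had no count. Both libraries held Tomato-positive epithelial cells sorted from whole small intestine, freed of attached pancreas and pooled from 4 to 5 mice aged 4 to 6 weeks. WT mice were Neurog3Cre; Rosa26tdtomato, so that cells descended from Neurog3-expressing progenitors carried the red reporter. Mice of the library labelled NFKO were Neurog3Cre-FoxO1 f/f; Rosa26tdtomato, with the same Cre, the same reporter and floxed FoxO1 alleles in addition. Cre acts in these animals only where Neurog3 has been on. Each group was 1 library with no replicate, and no test between the libraries was possible.

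The endoplasmic reticulum is where secreted and membrane proteins enter the secretory route. They pass through a channel in its membrane, lose their signal peptide, gain sugars and disulfide bonds, and are folded by chaperones before export, while faulty chains are sent back for degradation. When unfolded protein builds up, 3 kinds of membrane sensor, IRE1, PERK and ATF6, switch on the unfolded protein response, which raises chaperones and, if stress lasts, factors linked to cell death. Goblet cells, which fill with mucin, and Paneth cells, which release antimicrobial proteins, are known for a large endoplasmic reticulum, and a paralog of IRE1, encoded by Ern2, is known from mucus-producing epithelium.

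Some promoters of these genes share a control sequence. The genes were not picked by their promoters, but the list holds genes of the unfolded protein response. The shares below are therefore descriptions. The endoplasmic reticulum stress element, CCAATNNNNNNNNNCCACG, binds NF-Y at its first end and ATF6 or XBP1 at the other. RefSeq promoters of build GRCm38.p6, from 250 bases before to 50 after a transcript start, matched 33 of the 42 genes. The element lay on either strand in 8 of these 33 genes (24.2%), against 37 of 27025 genes with a promoter in the table (0.137%). In a wider list of endoplasmic reticulum genes, used again below, it lay in 1 of 60 matched genes (1.67%). Capitals mark the conserved ends.
Hspa5: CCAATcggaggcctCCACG
Hsp90b1 (element farther from the start): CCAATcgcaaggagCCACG
Hsp90b1 (element nearer the start): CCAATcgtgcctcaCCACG
Dnajc3: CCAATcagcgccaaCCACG
Calr: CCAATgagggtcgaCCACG
Canx: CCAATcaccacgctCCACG
Pdia6: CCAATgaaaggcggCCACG
Creld2: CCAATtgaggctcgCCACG
Syvn1: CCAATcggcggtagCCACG
The Hspa5 element sat from base -65 to base -47 relative to the start, and the 9 elements lay between bases -212 and -26. The core of a second response element, TGACGTGG, was present in 1 of the 33 genes, Kdelr3 (3.03%, against 0.714% of all genes), and the ATF4 site TTGCATCA in 1, Herpud1 (against 1.03%). Read on the opposite strand, the second core begins with the CCACG that ends the first element, so the searches can meet in those letters. Below stand the 250 bases before the start of Hspa5 (chr2:34771840-34772089, plus strand), which has the first element, and of Kdelr3 (chr15:79516158-79516407, plus strand), which has the second in the opposite orientation, both in GRCm38.p6 with the matched site in capitals.
Hspa5: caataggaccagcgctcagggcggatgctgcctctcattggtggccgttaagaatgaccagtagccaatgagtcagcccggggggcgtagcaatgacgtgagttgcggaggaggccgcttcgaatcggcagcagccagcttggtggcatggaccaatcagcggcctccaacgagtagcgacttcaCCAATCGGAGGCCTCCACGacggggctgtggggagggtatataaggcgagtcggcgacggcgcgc
Kdelr3: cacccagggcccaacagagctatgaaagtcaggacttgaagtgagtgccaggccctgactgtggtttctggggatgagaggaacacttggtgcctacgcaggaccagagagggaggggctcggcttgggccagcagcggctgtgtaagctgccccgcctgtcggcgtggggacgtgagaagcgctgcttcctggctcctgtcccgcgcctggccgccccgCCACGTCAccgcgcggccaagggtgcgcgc
A match is a run of letters, and binding was not measured.

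The filters left 3003 cells in WT and 5292 for the library labelled NFKO, which held 78722460 and 111249836 unique molecular identifiers (UMIs, each 1 captured transcript) and medians of 16883 and 17039 UMIs per cell. Levels are given in CPM, the UMIs of a gene divided by all UMIs of the same cells in 1 library and scaled to 1000000, and 3 UMIs over all kept cells correspond to 0.0381 CPM for WT and 0.0270 in the other library. Intervals are 95% intervals for counting error alone and leave out differences between mice, sorts and libraries. Foxo1, the targeted gene, was at 11.6 CPM in WT (910 UMIs) and 12.4 for the library labelled NFKO (1381 UMIs), a ratio of 1.07 (0.987 to 1.17) over all cells. By class its ratio ran from 0.298 (0.146 to 0.606) in tuft-like cells, on 18 UMIs in each library, over 0.526 in cycling and 0.851 (0.739 to 0.982) in enteroendocrine-like cells, to 1.41 (1.15 to 1.75) in stem-like cells, and counts from the 3′ end do not show whether floxed exons were lost. Typed by Y-linked genes and Xist, the WT library held 2424 male and 6 female cells and the other 357 male and 4359 female, so genotype and sex cannot be told apart between them. The libraries shared 4 barcodes among kept cells. Cells were clustered with the 42 genes and a wider list of 74 endoplasmic reticulum genes left out, and 22 of 24 clusters were named from markers. A class carries the ending "-like" because its name rests on markers alone.

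The 42 genes took their largest shares of transcripts in goblet-like and cycling cells. Together they made up 1.95% of goblet-like UMIs in WT (400854 UMIs, 912 cells) and 1.84% for the library labelled NFKO (667037 UMIs, 1765 cells). Dividing cells of the cycling class were close, at 1.72% and 1.86%. The goblet marker list summed there to 50532 and 50108 CPM, beside 147037 and 208073 in goblet-like and 20976 and 30731 in stem-like cells. Its part in the share of cycling cells was not tested. Enteroendocrine-like cells stood at 0.8998% and 0.936%, stem-like cells at 0.981% and 1.09% and enterocyte-like cells at 0.994% and 0.818%. Paneth-like cells, at 0.681% and 0.769%, and tuft-like cells, at 0.578% and 0.646%, were lowest in both libraries. Goblet-like cells were 2.16-fold above enteroendocrine-like cells in WT (2.15 to 2.18) and 1.96-fold in the other library (1.95 to 1.97). They were 1.13-fold above cycling cells in WT and 0.990-fold of them in the library labelled NFKO, so that the order of these neighbours was not the same in both. The 3 genes with the most UMIs, Hspa5, Sec61b and Calr, supplied 25.6% of the summed UMIs for WT and 24.9% for the other library.

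**Figure D1:**
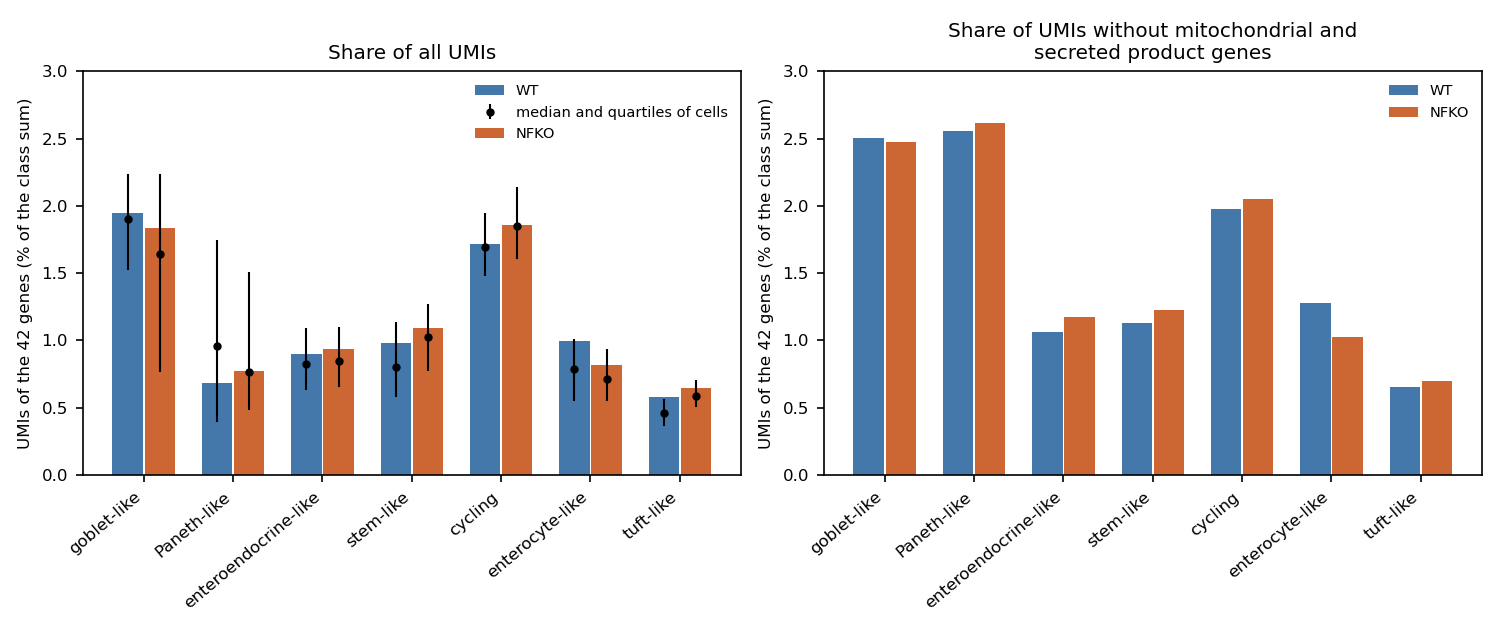
Summed share of UMIs from the 42 genes (percent, vertical axis) in each class, for WT and the library labelled NFKO, of all UMIs on the left (bars are class sums, dots and lines the median and quartiles of cells) and without mitochondrial and secreted product genes on the right. Goblet-like cells, at 1.95% and 1.84%, and cycling cells, at 1.72% and 1.86%, stand above the other classes on the left, and Paneth-like cells, at 2.56% and 2.61%, stand beside them on the right.

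The low place of Paneth-like cells depended on what the total included. Mitochondrial transcripts and transcripts of mucus, antimicrobial, Reg and hormone genes took 73.4% of Paneth-like UMIs in WT and 70.6% for the library labelled NFKO, against 22.2% and 25.7% in goblet-like and 15.3% and 20.03% in enteroendocrine-like cells. With those 76 genes taken out of the totals, the 42 genes made up 2.56% and 2.61% of Paneth-like UMIs. Goblet-like cells then stood at 2.50% and 2.47%, cycling cells at 1.97% and 2.05%, enteroendocrine-like cells at 1.06% and 1.17% and tuft-like cells at 0.652% and 0.695%. Paneth-like cells were thus below enteroendocrine-like cells on all transcripts and more than 2-fold above them among the remaining ones.

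Goblet-like cells fell into 4 clusters, and the summed share differed among them more than between the libraries. The cluster led by Ido1 and Zg16, a lectin-like granule protein of goblet cells, was lowest, at 0.926% in WT (89 cells) and 0.802% for the library labelled NFKO (792 cells). The cluster led by Mptx1 and Agr2, a disulfide isomerase needed for mucin, held 1.88% and 2.22% (159 and 731 cells). The cluster with Dll1 and Spdef, a goblet transcription factor, among its leading genes held 1.82% and 2.11% (74 and 225 cells). The cluster led by Edn2 and Areg held 2.03% and 1.96%, but 590 of its cells were WT and 17 came from the other library. Heat shock genes Hspa1a and Hspa1b were among the genes that led it, and a cluster nearly all from 1 library may be that library and not a cell state. Without the 76 abundant genes, the Ido1 and Zg16 cluster was still lowest, at 1.45% and 1.57% against 2.07% to 2.75% in the others.

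**Figure D2:**
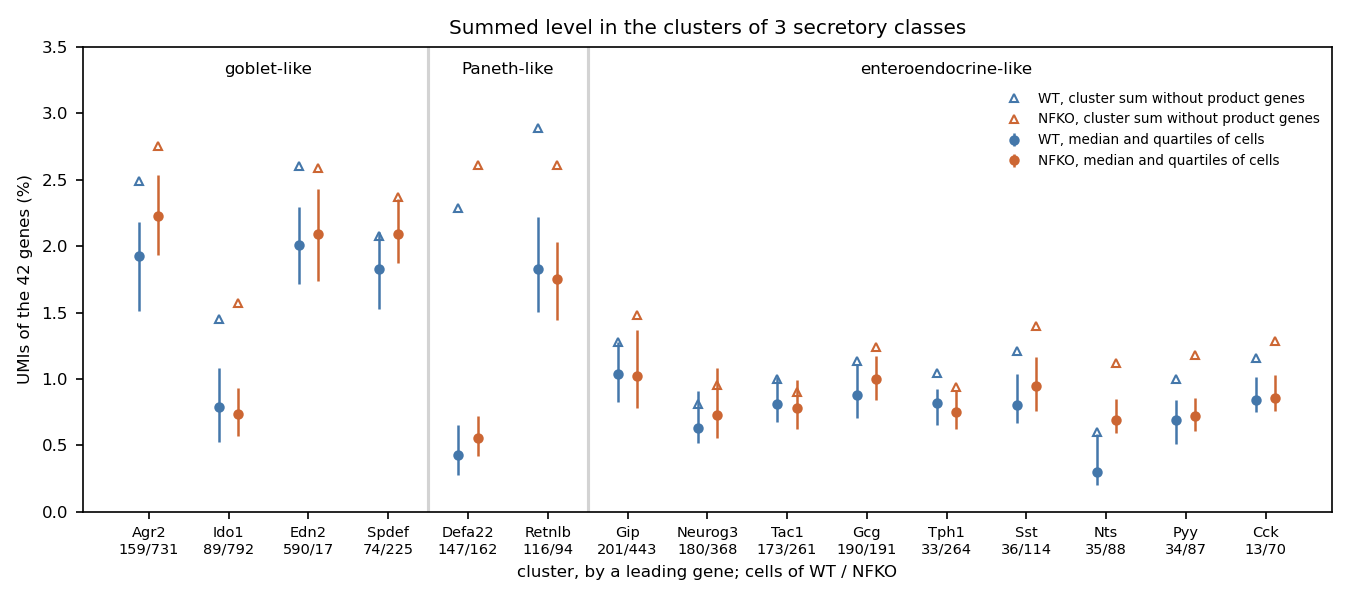
Share of UMIs from the 42 genes in single cells of each goblet-like, Paneth-like and enteroendocrine-like cluster (percent, median with the quartiles over cells) in both libraries, with triangles for the cluster sum without mitochondrial and secreted product genes. The Ido1 and Zg16 cluster, with medians of 0.792% and 0.732%, lies below the other goblet-like clusters and within the range of the enteroendocrine-like ones.

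Set against the pooled cells of the other goblet-like clusters, the Ido1 and Zg16 cluster had 0.468 of their summed level in WT (0.456 to 0.479) and 0.365 for the library labelled NFKO (0.362 to 0.368). Of 37 genes above the minimum of 50 CPM on either side and 100 UMIs in all, in each library, 20 were at least 2-fold lower in both libraries and 0 were 2-fold higher. Of all 2437 genes above that minimum, 30.9% were as much lower and 8.04% as much higher. Of the 20, Pdia5 and Creld2 were under 50 CPM in the cluster in both libraries and Sdf2l1, Fkbp11 and Spcs3 in 1, so there they passed the minimum only through the other clusters and were bound to be lower. Counted over all 42 genes with no minimum, 35 lay below 1 in both libraries. The median ratio of the 37 was 0.492 in WT and 0.384 for the library labelled NFKO. Over all genes above the minimum it was 0.710 and 0.627, so most genes lay below 1 there. The clusters were drawn without these genes, but the cells' other transcripts set the boundaries, so the ratios are descriptions. Fkbp11, a prolyl isomerase of secretory tissue, was at 100.02 CPM against 481 in WT and at 34.6 against 511 in the other library. Pdia5, a disulfide isomerase, stood at 26.9 against 198 CPM and at 16.5 against 236. These were the lowest ratios of the group, 0.208 and 0.0677 for Fkbp11 and 0.135 and 0.0698 for Pdia5. Sdf2l1, a partner of chaperone complexes, was at 67.2 against 288 CPM in WT and at 45.6 against 334 in the other library. Hspa5, which encodes BiP, the main chaperone, was at 793 against 1763 CPM and at 592 against 1877.

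Most sensors did not share this pattern, although Atf6 stood at 0.981 and 0.654 of the other clusters. Ern2 was higher in the Ido1 and Zg16 cluster, at 257 CPM against 161 in WT (1.60-fold, 1.36 to 1.86) and 187 against 167 in the other library (1.12-fold, 1.06 to 1.19). Eif2ak3, which encodes the sensor PERK, was at 64.2 against 24.2 CPM and at 47.0 against 19.5, ratios of 2.65 and 2.41. Ern1, for IRE1, was at 26.9 against 11.8 CPM in WT and at 15.4 against 11.7 in the other library. Trib3, a pseudokinase induced by lasting stress, was at 5.97 against 2.86 and at 8.24 against 2.48 CPM on 4 and 77 UMIs in the cluster. These 4 were the genes above 1 in both libraries, and Ern1 and Trib3 were below the minimum level. Eif2ak3 was below it in the library labelled NFKO, and in WT passed it only through the Ido1 and Zg16 cluster. P4hb, a disulfide isomerase, differed little, with ratios of 0.894 and 0.842.

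Goblet-like cells as a class stood above enteroendocrine-like cells for most of the group. Over all 42 genes, 35 were above 1 in both libraries and 6 below 1 in both. Of 38 above the minimum, 16 were at least 2-fold higher in both libraries, against 10.2% of 3496 genes, and 1, Atf6, was at least 2-fold lower, against 31.5%. The median ratio of these 38 was 2.28 in WT and 1.88 for the library labelled NFKO, beside 0.691 and 0.698 over all genes. Pdia5, Fkbp11, Kdelr3, Edem1 and Ern2, 5 of the 16, were under 50 CPM in enteroendocrine-like cells in both libraries. They passed the minimum only through goblet-like cells, where they were bound to be the higher. Creld2, also among the 16, was under 50 CPM in enteroendocrine-like cells of WT, and in that library was bound to be higher in the same way. With size factors from the median of gene ratios in place of totals, 29 of the 38 were called higher and 0 lower (22.7% of all genes higher).

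By role, the contrast with enteroendocrine-like cells differed in size. Disulfide enzymes summed to 3.19-fold in WT and 2.71-fold in the other library and the translocation machinery to 2.49-fold and 2.08-fold. Lectin chaperones were at 1.82-fold and 1.48-fold, the other chaperones at 1.78-fold and 1.75-fold and degradation factors at 1.45-fold and 1.46-fold. Stress factors, at 1.06-fold and 1.15-fold, were lowest of the 9 roles. Prolyl isomerases, at 4.14-fold and 3.28-fold, and retrieval receptors, at 3.21-fold and 2.77-fold, are 2 genes each, with Fkbp11 and Kdelr3 bound to be higher, and the remaining genes of these roles, Fkbp2 and Kdelr2, stood at 2.10-fold and 1.73-fold and at 2.69-fold and 2.37-fold. Sensors summed to 1.38-fold and 1.69-fold, but to 2.33-fold and 2.72-fold without the enteroendocrine-like cluster led by Tac1. Ern2, bound to be higher, supplied 164 of the 249 CPM of sensors in WT goblet-like cells and 172 of 249 in the other library. Without the Tac1 cluster Atf6 stood at 1.06 and 0.850, Ern1 at 0.346 and 0.456 and Eif2ak3 at 1.16 and 1.85, each below the minimum level.

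**Figure D3:**
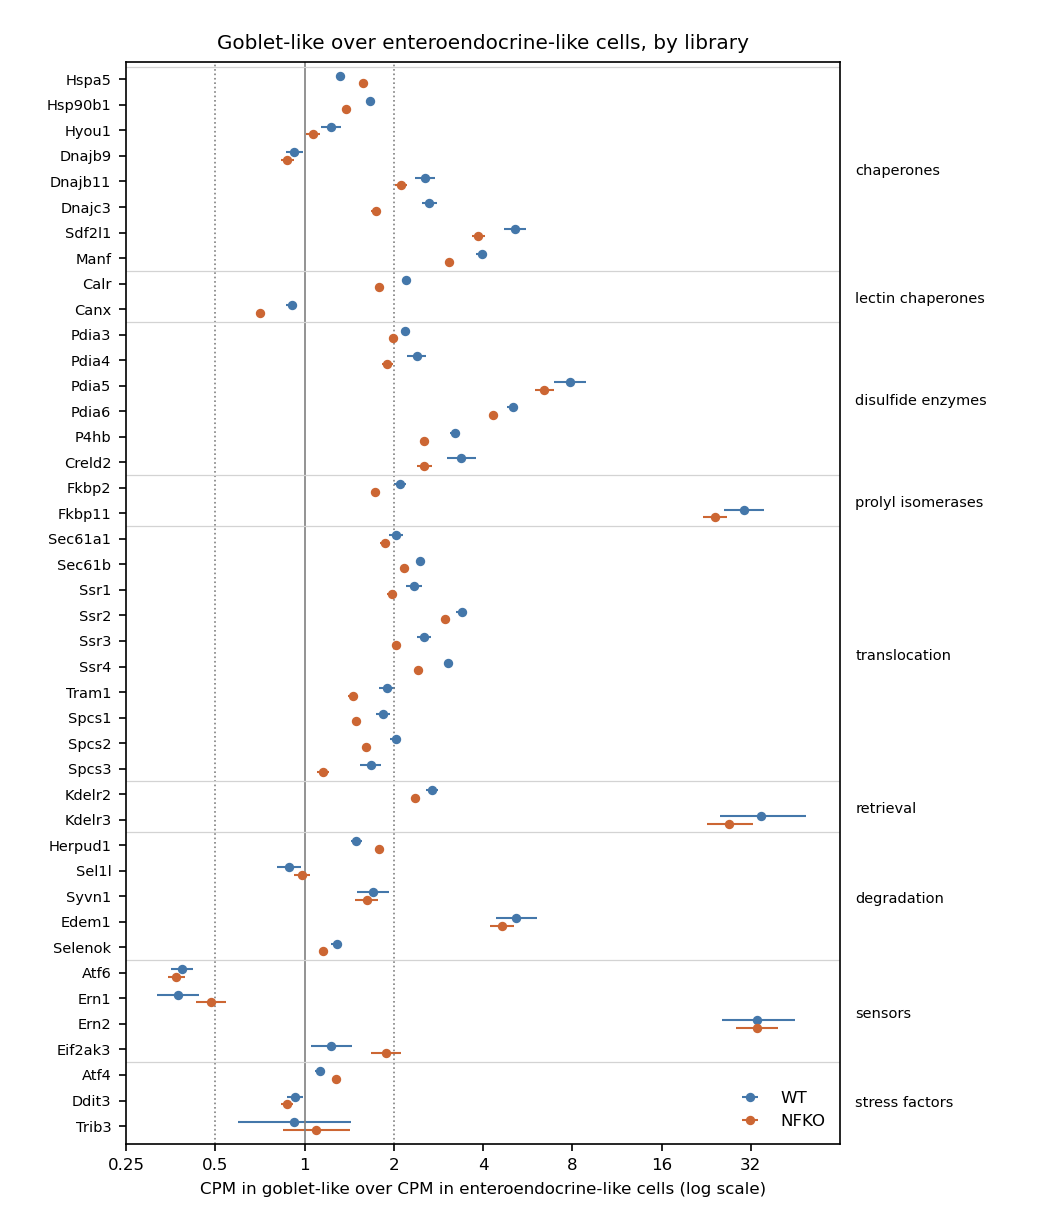
Ratio of CPM in goblet-like to CPM in enteroendocrine-like cells for each of the 42 genes, grouped by role, in both libraries (log axis, bars are 95% intervals for counting error). Kdelr3, Ern2 and Fkbp11 lie farthest to the right, at 24.2-fold or more in each library, and Atf6 lies to the left of 1.

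The 3 widest differences were in genes that were nearly silent in enteroendocrine-like cells. Kdelr3 (chr15:79516411-79527739, plus strand), a receptor that returns escaped chaperones from the Golgi, was at 121 CPM in WT goblet-like cells and 119 in the other library, against 3.49 and 4.38 CPM in enteroendocrine-like cells. The ratios were 34.6 (25.2 to 49.0) and 27.1 (22.7 to 32.6). Ern2 (chr7:122169893-122186207, minus strand) was at 164 and 172 CPM against 4.87 and 5.14, ratios of 33.7 and 33.5. Fkbp11 (chr15:98724366-98728198, minus strand) was at 469 and 388 CPM against 15.4 and 16.1, ratios of 30.4 and 24.2. The summed goblet marker list stood at 3520 and 5695 CPM in enteroendocrine-like cells beside 147037 and 208073 in goblet-like cells, and its part in the low levels was not tested.

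Among the chaperones, Sdf2l1 was at 281 and 260.0 CPM in goblet-like cells and at 54.7 and 67.4 in enteroendocrine-like cells, 5.13-fold and 3.86-fold. Manf, a secreted protein that also holds BiP, was 3.96-fold and 3.08-fold higher, with 969 and 1008 CPM against 245 and 328. Manf overlaps Rbm15b on the same strand over 6511 bases, which could take or lend reads. Dnajb11, a co-chaperone of BiP, was 2.55-fold and 2.12-fold higher, with 186 and 204 CPM against 73.2 and 96.5. Hspa5 was 1.31-fold and 1.58-fold higher and Hsp90b1, the chaperone GRP94, 1.66-fold and 1.38-fold. Dnajc3, an inhibitor of PERK, was 2.64-fold and 1.74-fold higher, Hyou1, a large chaperone that recharges BiP, 1.23-fold and 1.07-fold, while Dnajb9, a co-chaperone that represses IRE1, was slightly lower, at 0.925 and 0.876. The lectin chaperones parted: Calr, the soluble one, was 2.21-fold and 1.79-fold higher and Canx, the membrane-bound one, was at 0.904 and 0.707.

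Disulfide enzymes were each higher in goblet-like cells. Pdia5 was at 193 and 179.5 CPM against 24.5 and 27.9, 7.86-fold and 6.45-fold. Pdia6, with 1079.8 and 1009 CPM against 214 and 233, was 5.05-fold and 4.32-fold higher. Creld2, which has disulfide isomerase activity, was at 117 and 128 CPM against 34.7 and 50.6, 3.38-fold and 2.53-fold. P4hb was at 885 and 799 CPM against 275 and 315, 3.22-fold and 2.54-fold. Pdia3, the partner of the lectin chaperones, was at 2.18-fold and 1.99-fold and Pdia4 at 2.39-fold and 1.90-fold, each short of 2-fold in 1 library. The prolyl isomerase Fkbp2 was 2.10-fold and 1.73-fold higher.

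Of the translocation genes, Sec61b, a subunit of the channel, was at 1729.7 and 1572 CPM against 704 and 724, 2.46-fold and 2.17-fold. The translocon-associated complex sits beside the channel. Its subunit Ssr1 was 2.35-fold and 1.98-fold higher and Ssr2, at 839 and 962 CPM against 248 and 322, 3.39-fold and 2.99-fold. Ssr3 was at 334 and 318 CPM against 132 and 156, 2.53-fold and 2.04-fold, and Ssr4 at 1279 and 1199 against 418 and 495, 3.06-fold and 2.42-fold. The pore subunit Sec61a1 was at 2.03-fold and 1.87-fold. Tram1, a membrane protein beside the channel, and the signal peptidase subunits Spcs1, Spcs2 and Spcs3 lay between 1.67-fold and 2.03-fold in WT and between 1.16-fold and 1.62-fold in the other library. Kdelr2, a second retrieval receptor, was at 571 and 625 CPM against 212 and 264, 2.69-fold and 2.37-fold.

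In the degradation pathway only Edem1, a lectin that hands misfolded glycoproteins on, passed 2-fold in both libraries, at 84.5 and 90.4 CPM against 16.4 and 19.5 (5.16-fold and 4.64-fold). Herpud1, a ligase partner, was 1.495-fold and 1.79-fold higher, Syvn1, the ubiquitin ligase, 1.70-fold and 1.62-fold, and Selenok, a membrane selenoprotein, 1.29-fold and 1.15-fold. Sel1l, the adaptor of Syvn1, was at 0.889 and 0.979. Atf6 was at 47.2 and 37.7 CPM in goblet-like cells against 122 and 102 in enteroendocrine-like cells, 0.386 and 0.369. This call rested on 1 enteroendocrine-like cluster, led by Tac1, without which the ratios were 1.06 and 0.850 and 0 genes were called lower. Atf4, the factor translated when PERK is active, was at 1.13 and 1.28 and Ddit3, its target CHOP, at 0.929 and 0.872.

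Paneth-like cells on the same scale were below enteroendocrine-like cells, in a class where most genes were. Of 33 genes above the minimum, 1 was at least 2-fold higher in both libraries, against 2.20% of 3184 genes, and 6 were at least 2-fold lower, against 83.0%. Fkbp11 was the gene called higher, at 246 CPM for WT and 274 in the other library against 15.4 and 16.1 (15.9-fold and 17.1-fold), and it passed the minimum only through Paneth-like cells. The 6 lower genes were Hsp90b1, Hyou1, Canx, Atf6, Atf4 and Ddit3. Hsp90b1 was at 323 and 297 CPM against 793 and 812, ratios of 0.408 and 0.366, and Canx at 102 and 103 against 297 and 332, 0.343 and 0.311. Atf4 was at 121 and 119.7 CPM against 328 and 249 (0.370 and 0.481), Hyou1 at 41.3 and 39.8 against 89.0 and 83.0 (0.464 and 0.479) and Ddit3 at 63.9 and 36.3 against 156 and 109.7 (0.410 and 0.331). Atf6 was at 18.6 and 21.0 against 122 and 102, 0.152 and 0.205, but at 0.416 and 0.472 without the Tac1 cluster, where it fell below the minimum and 5 of 32 genes were lower, against 82.5% of 3134. Hyou1 and Atf6 were under 50 CPM in Paneth-like cells in both libraries and Ddit3 in the library labelled NFKO, and there passed only through enteroendocrine-like cells. Median ratios were 0.706 and 0.757 for these 33 genes and 0.219 and 0.241 for all genes. With totals that left out the 76 abundant genes, 23 of 39 were higher and 0 lower (10.9% of all genes higher), and with median-of-ratios size factors 25 of 33 were higher and 0 lower (13.3%). The split of higher against lower calls in Paneth-like cells therefore turned with the scale.

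Kdelr3 and Ern2, both below the minimum in Paneth-like cells, had ratios of 8.58 and 8.79 and of 7.90 and 8.99 over enteroendocrine-like cells. P4hb was 1.99-fold and 1.86-fold and Ssr4 1.70-fold and 1.75-fold higher on all transcripts. The 2 Paneth-like clusters differed widely. The defensin-led cluster held 0.413% in WT and 0.534% for the library labelled NFKO (147 and 162 cells). The other, led by Rnase1 and Retnlb with the Paneth protease Mmp7, held 1.85% and 1.73% (116 and 94 cells), and 3 goblet markers were raised in it besides 5 Paneth markers. Between the clusters, 33 of 37 genes were at least 2-fold lower in the defensin-led cluster in both libraries, against 93.0% of 1696 genes, and 0 were higher, against 1.42%. Of the 33, 10 were under 50 CPM in the defensin-led cluster in at least 1 library, 9 of them in both. There they passed the minimum only through the other cluster and were bound to be lower in the defensin-led one. The abundant genes took 82.0% of UMIs there in WT, and without them the clusters held 2.29% against 2.89% in WT and 2.61% against 2.61% in the other library.

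Among enteroendocrine-like cells the 9 clusters, each named by a hormone or subtype gene, held between 0.479% and 1.08% in WT and between 0.756% and 1.11% in the library labelled NFKO. The Gip cluster, whose incretin is made by K cells, was highest in both, at 1.08% (201 cells) and 1.11% (443 cells), and the Nts cluster was lowest, at 0.479% (35 cells, median 3572 UMIs) and 0.756% (88 cells, median 16560 UMIs). The remaining clusters lay between 0.678% and 0.928% in WT and between 0.762% and 1.03% in the other library. Hsp90b1, at 1126 and 1152 CPM in the Gip cluster, was 1.65-fold and 1.68-fold above the other enteroendocrine-like cells. With both libraries pooled, the highest cluster stood from 1.41-fold (Ssr3) to 3.11-fold (Sdf2l1) above the lowest for most of the group. Wider spreads belonged to Atf6, Ern2, Fkbp11, Pdia5, Ddit3, Trib3 and Kdelr3, with Kdelr3 at 0 UMIs in the Cck cluster.

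Atf6 (chr1:170704674-170867771, minus strand), which encodes the sensor cut in the Golgi to free a transcription factor, was concentrated in the Tac1 cluster. It stood there at 461 CPM in WT (934 UMIs) and 528 for the library labelled NFKO (1829 UMIs), 10.3-fold and 11.9-fold above the other enteroendocrine-like cells. In the remaining 8 clusters it lay between 21.5 and 71.4 CPM in WT and between 25.2 and 54.0 in the other library, so that the Tac1 cluster did not overlap them. The summed share of the group in that cluster, 0.879% and 0.811%, was within the range of the others. Tac1 cells carried 10 of 12 enteroendocrine markers, with Chgb at 52333 and 40001 CPM, but their 10 leading genes included 1 stroma marker, Vim (2549 and 2454 CPM), and no enteroendocrine marker, while Col1a1, Col3a1, Dcn and Acta2 had 0 UMIs in both libraries. Values without this cluster stand beside those for Atf6 and the summed sensors.

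**Figure D4:**
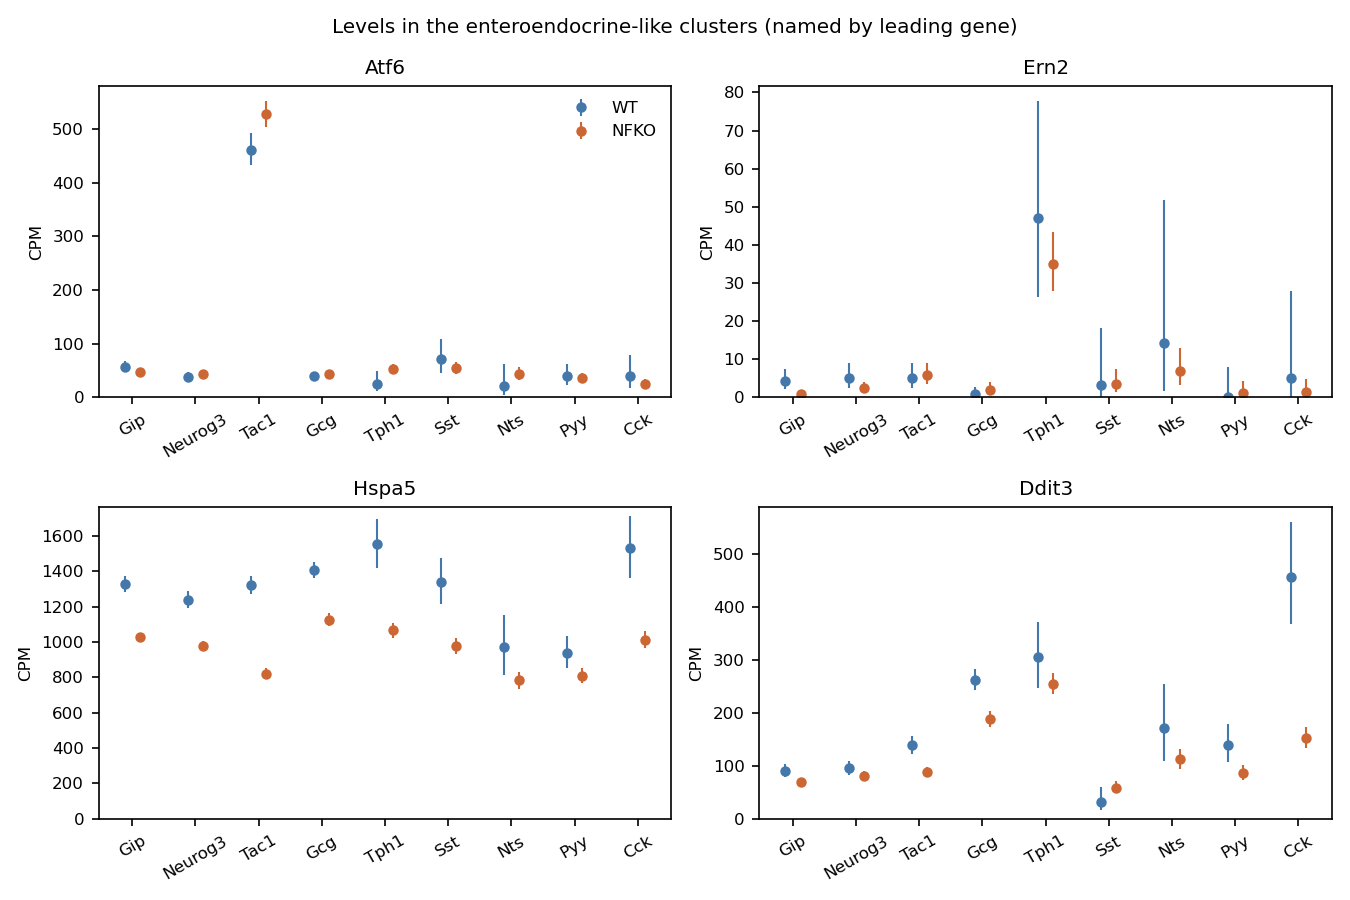
CPM of Hspa5, Atf6, Ern2 and Ddit3 in the 9 enteroendocrine-like clusters of WT and the library labelled NFKO (bars are 95% intervals for counting error). Atf6 reaches 461 and 528 CPM in the Tac1 cluster and at most 71.4 elsewhere, and Hspa5 is lower in the library labelled NFKO in every cluster.

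Ern2 was seen mainly in the Tph1 cluster, named for the enzyme of serotonin synthesis. It was at 47.2 CPM for WT (15 UMIs) and 35.0 in the other library (85 UMIs), 13.1-fold and 14.5-fold above the other enteroendocrine-like cells, and at most 14.3 CPM in any other cluster. That level was below the 164 and 172 CPM of goblet-like cells. Ddit3 was highest in the Cck cluster in WT, at 457 CPM (91 UMIs, 13 cells), and in the Tph1 cluster in the library labelled NFKO, at 255 CPM. Its lowest level in both was in the Sst cluster, at 32.5 and 58.5 CPM. Atf4 was also highest in the Tph1 cluster, at 443 and 392 CPM.

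Between the libraries, differences in the group were small beside those between cell states. In goblet-like cells the summed level of the library labelled NFKO over WT was 0.943 (0.940 to 0.947). In Paneth-like cells it was 1.13 (1.12 to 1.14) and in enteroendocrine-like cells 1.04 (1.03 to 1.05). The goblet-like ratio turned with the make-up of the class, being 1.11 without the Ido1 and Zg16 cluster and 1.04 without the Edn2 and Areg cluster. Cluster by cluster it was 1.18 in the Mptx1 and Agr2 cluster, 1.16 in the Dll1 and Spdef cluster, 0.966 in the Edn2 and Areg cluster and 0.865 in the Ido1 and Zg16 cluster. Paneth-like clusters went opposite ways, with 1.30 in the defensin-led and 0.934 in the other. In enteroendocrine-like cells 7 of 9 clusters were above 1, and the Tac1 and Tph1 clusters were below it. Among cells typed as male, the ratios were 0.837 in goblet-like (758 and 117 cells), 1.52 in Paneth-like (227 and 13 cells) and 0.927 in enteroendocrine-like cells (746 and 129 cells), so the last turned below 1.

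Few of the group passed 1.5-fold in these classes. In goblet-like cells, of 38 genes above 50 CPM in either library, 0 were higher, against 3.76% of 2395 genes, and 1 was lower, against 3.17%. In Paneth-like cells 1 of 32 was higher and 1 lower, against 6.61% and 3.46% of 953 genes. In enteroendocrine-like cells 0 of 33 passed in either direction, against 2.65% higher and 2.98% lower of 3586 genes, and without the Tac1 cluster the count was 0 of 32. Median log2 ratios of the genes above the minimum were -0.10, 0.17 and 0.18 in the 3 classes, beside -0.00, 0.22 and -0.00 for all genes. Of the genes above the minimum in goblet-like cells, 23.7% had the interval of the ratio above 1 and 60.5% below 1, beside 35.9% and 37.5% of all genes. In Paneth-like cells these shares were 62.5% and 9.38%, beside 71.0% and 15.3% of all genes, so that most genes of that class leaned the same way. In enteroendocrine-like cells they were 66.7% and 21.2%, beside 33.9% and 36.5%.

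**Figure D5:**
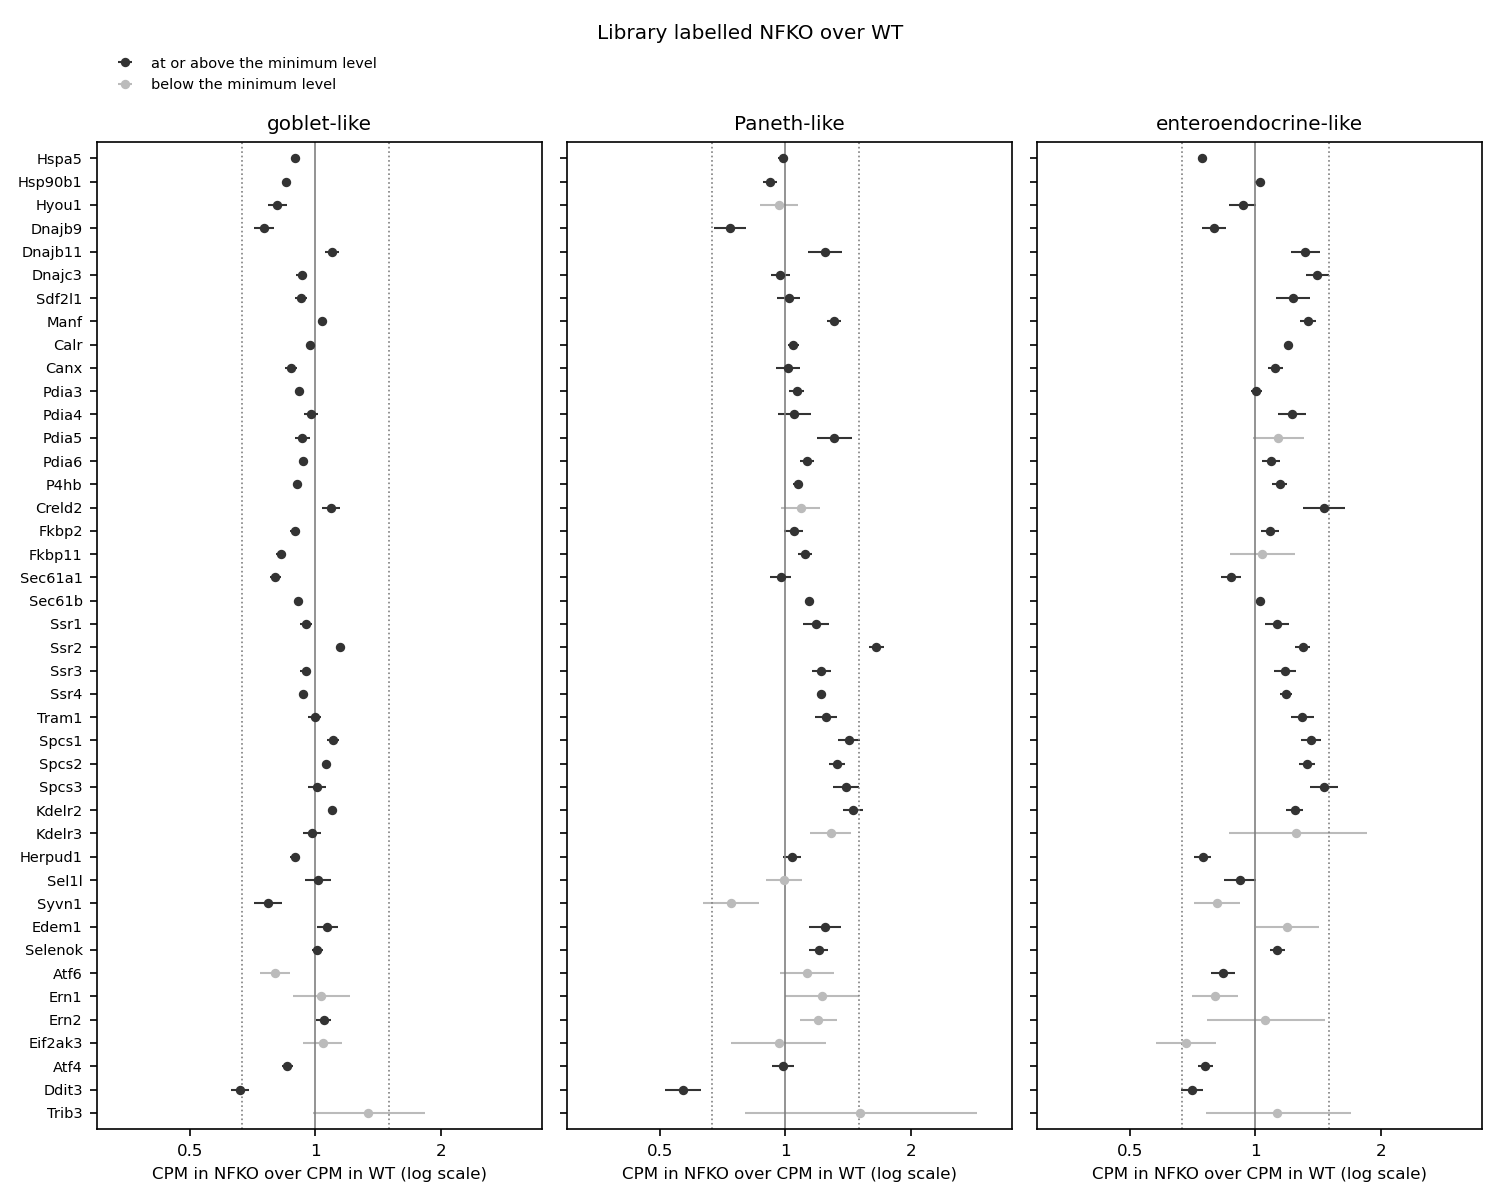
Ratio of CPM in the library labelled NFKO to CPM in WT for each of the 42 genes in goblet-like, Paneth-like and enteroendocrine-like cells (log axis, bars are 95% intervals for counting error, dotted lines at 1.5-fold, grey points below the minimum level). Ddit3 lies left of 1 in all 3 panels, at 0.661, 0.568 and 0.704, and Ssr2 reaches 1.65 in Paneth-like cells.

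Ddit3 (chr10:127290774-127296288, plus strand), which encodes the stress factor CHOP, was the gene called lower in goblet-like and Paneth-like cells. It was at 145 CPM in WT goblet-like cells (2978 UMIs) and 95.6 in the library labelled NFKO (3474 UMIs), a ratio of 0.661 (0.629 to 0.695). In Paneth-like cells it was at 63.9 (1349 UMIs) and 36.3 CPM (554 UMIs), 0.568 (0.514 to 0.628), and in enteroendocrine-like cells at 156 and 109.7 CPM, 0.704 (0.664 to 0.747). In Paneth-like cells it passed the minimum of 50 CPM only through WT and so was bound to be lower in the library labelled NFKO. The goblet-like value turned on the Edn2 and Areg cluster, without which it was 1.78, and with totals that left out the 76 abundant genes it was 0.692, short of 1.5-fold. Leaving out that cluster took away 590 of 912 goblet-like cells of WT but 17 of 1765 of the other library. In the Mptx1 and Agr2 cluster Ddit3 was at 33.8 CPM for WT and 106 in the other library. A list of heat shock and immediate early genes, described below, summed in the Mptx1 and Agr2 cluster to 2917 and 6379 CPM, a ratio of 2.19. When heat shock genes were also kept out of the clustering, the 3 goblet-like clusters then found had ratios of 0.723, 0.632 and 0.725. Both Paneth-like clusters were below 1, at 0.821 and 0.374. In enteroendocrine-like clusters the ratio was below 1 in 8 of 9, with the interval below 1 in 5, and above it, at 1.80 (0.943 to 3.87), in the Sst cluster.

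Atf4 and Sec61a1 were also lower in the library labelled NFKO in 6 of 7 classes by their intervals, and higher in 0. Of all genes, between 15.3% (Paneth-like) and 37.5% (goblet-like) had intervals below 1 in a class. Atf4 was at 328 and 249 CPM in enteroendocrine-like cells (0.759, 0.729 to 0.790), at 370.4 and 318 in goblet-like cells (0.857) with Paneth-like cells at 121 and 119.7 (0.986, 0.928 to 1.05). The goblet-like value turned with the clusters, as for Ddit3, being 1.46 (1.37 to 1.57) in the Mptx1 and Agr2 cluster, 0.720 in the Ido1 and Zg16 cluster and 1.19 without the Edn2 and Areg cluster. When heat shock genes were also kept out of the clustering, Atf4 was at 0.881 (0.848 to 0.915) in the cluster led by Rep15 and Agr2. The Paneth-like clusters were at 1.11 (defensin-led) and 0.806. For Atf4 all 9 enteroendocrine-like clusters were below 1, with ratios from 0.646 to 0.884. Sec61a1 ranged from 0.573 to 0.975 over the classes. Trib3 had 61 and 144 UMIs in goblet-like cells, 2.96 and 3.96 CPM, and a difference was not detectable at this depth (ratio 1.34, 0.985 to 1.84).

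Hspa5 (chr2:34771970-34777547, plus strand) was lower in enteroendocrine-like cells of the library labelled NFKO. It was at 1318 CPM for WT (14336 UMIs) and 981 in the other library (28451 UMIs), a ratio of 0.744 (0.729 to 0.759). Every one of the 9 clusters had an interval below 1, with ratios from 0.619 in the Tac1 cluster to 0.861 in the Pyy cluster. In Paneth-like cells the ratio was 0.989 (0.960 to 1.02) over the class, made of 1.25 in the defensin-led and 0.766 in the other cluster. In goblet-like cells it was 0.893 (0.881 to 0.905), but 1.06 without the Ido1 and Zg16 cluster and 1.13 without the Edn2 and Areg cluster. Herpud1, at 251 and 187 CPM in enteroendocrine-like cells, had a ratio of 0.748 and was below 1 in 8 of 9 clusters. Dnajb9, at 118 and 94.0, had a ratio of 0.797, with clusters from 0.435 to 1.48 and 4 of 9 above 1.

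Some genes were higher in the library labelled NFKO in most classes where they passed the minimum. Of all genes, between 33.9% (tuft-like) and 71.0% (Paneth-like) had intervals above 1 in a class. Shares of all genes over several classes are not given. Spcs1 and Kdelr2 had intervals above 1 in 7 of 7 classes, Spcs2 and Manf in 6 with 0 below, Ssr2 in 6 with 1 below, Dnajb11 in 5 with 0 below and Creld2 in 4 of 4. In enteroendocrine-like cells Creld2 passed the minimum only through the library labelled NFKO and was bound to be higher there. Other genes of the same roles differed, with Spcs3 above 1 in 3 and below in 1, Ssr1 and Ssr3 above in 2 and below in 2, Sec61a1 above in 0 and Kdelr3 above in 0 of 2. Ssr2 (chr3:88575876-88588419, plus strand) was the gene called higher in Paneth-like cells, at 215 CPM for WT (4547 UMIs) and 356 in the other library (5439 UMIs), 1.65-fold (1.59 to 1.72). It was 2.02-fold in the defensin-led cluster and 1.41-fold in the other, but 1.49-fold with median-of-ratios size factors, 1.497-fold with totals that left out the 76 abundant genes and 1.27-fold with the same weight for each cell, all short of 1.5-fold. In enteroendocrine-like cells Ssr2 was 1.30-fold (248 and 322 CPM) and in goblet-like cells 1.15-fold (839 and 962 CPM). Spcs1 was 1.42-fold in Paneth-like cells, 1.36-fold in enteroendocrine-like and 1.102-fold in goblet-like cells. Kdelr2 followed at 1.45-fold, 1.25-fold and 1.09-fold.

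The largest ratios short of 1.5-fold in enteroendocrine-like cells belonged to Spcs3 (72.6 and 106 CPM, 1.46-fold), Creld2 (34.7 and 50.6 CPM, 1.46-fold) and Dnajc3 (115 and 162 CPM, 1.41-fold). Creld2 was under 50 CPM in WT, so in these cells it was bound to be higher in the library labelled NFKO. By role, retrieval receptors summed to 1.25-fold, lectin chaperones to 1.18-fold and translocation genes to 1.17-fold there, while stress factors summed to 0.744 and sensors to 0.818. In Paneth-like cells retrieval receptors summed to 1.42-fold and translocation genes to 1.25-fold, and stress factors to 0.845. In goblet-like cells the roles ranged from 0.805 for stress factors to 1.07 for retrieval receptors. Stress factors thus had the lowest ratio of the 9 roles in each of these 3 classes, but in goblet-like cells they stood at 1.29 (1.23 to 1.35) without the Edn2 and Areg cluster, at 1.68 in the Mptx1 and Agr2 cluster and at 0.739 in the Ido1 and Zg16 cluster. With heat shock genes also kept out of the clustering, the cluster led by Rep15 and Agr2 had Ddit3 at 0.723, Atf4 at 0.881 and Trib3 at 0.927 (0.620 to 1.39). In the defensin-led Paneth-like cluster the summed stress factors were at 1.03 (0.966 to 1.105) and in the other at 0.627.

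In enterocyte-like and tuft-like cells more of all genes were past 1.5-fold. Of 30 genes above the minimum in enterocyte-like cells, 0 were higher, against 13.2% of 2846 genes, and 4 were lower, against 6.08%: Hyou1 (58.8 and 34.2 CPM), Fkbp11 (61.8 and 28.9), Sec61a1 (267 and 153) and Atf4 (284 and 185). Hyou1 and Fkbp11 passed the minimum of 50 CPM only through WT, so in enterocyte-like cells they were bound to be lower. The summed ratio there was 0.823 (0.814 to 0.832), but the cluster led by Apoa4 and Apoa1 made up 122 of 252 WT cells and 240 of 347 of the others, and the ratio was 1.08 within it and 0.958 within the remaining one. In tuft-like cells 8 of 28 were higher, against 22.5% of 3408 genes, and 1, Atf4 (267 and 135 CPM), was lower, against 14.3%. Spcs1 (81.0 and 189 CPM) was 2.33-fold, Ssr4 (250.4 and 503) 2.01-fold and Manf (97.5 and 193) 1.98-fold higher. Kdelr2 (105 and 191) was at 1.82-fold, Ssr2 (145 and 263) at 1.81-fold and Spcs3 (37.5 and 66.5) at 1.77-fold, followed by Sec61b (312 and 504), at 1.62-fold, and Spcs2 (145 and 233), at 1.60-fold. These rest on 25 to 208 UMIs in the 87 WT cells, whose median of 6208 UMIs lay below the 16721 of the other library. Spcs3 was under 50 CPM in WT, so it passed the minimum only through the other library and was bound to be higher there. Stem-like cells had 0 of 31 past 1.5-fold in either direction, against 2.97% of 2962 genes higher and 2.87% lower. In cycling cells 0 of 37 were higher, against 3.38% of 2987 genes, and 1 was lower, against 3.28%, namely Ddit3 at 57.0 and 36.5 CPM (0.640). It passed the minimum of 50 CPM only through WT and so was bound to be lower in the library labelled NFKO.

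Of 15 heat shock and immediate early genes, Hspa1a, Hspa1b, Hsph1, Dnajb1, Hsp90aa1, Atf3 and Jun had intervals below 1 in 7 of 7 classes, while Hspa8 was below 1 in 3 and above in 4, and Ier2 above in 6. Hspa1a was at 476 CPM in WT goblet-like cells and 25.3 in the library labelled NFKO, at 102 and 4.65 in Paneth-like and at 402 and 39.4 in enteroendocrine-like cells. The summed list had ratios of 0.672, 0.758 and 0.633. By goblet-like cluster its ratio was 2.19 (Mptx1 and Agr2), 0.655 (Ido1 and Zg16), 1.003 (Edn2 and Areg) and 0.772 (Dll1 and Spdef). Atf3, a stress-induced factor of that list, had ratios of 0.789, 0.806 and 0.441. Mitochondrial UMIs over 25% were found in 35.6% of WT barcodes and 17.3% of those of the other library, all of which were left out. Their part in the levels of Ddit3, Atf4 and Hspa5 was not tested. In Paneth-like cells the enteroendocrine marker list was at 41.4 CPM for WT and 248 in the other library and the tuft list at 1.94 and 21.9, and the goblet list in enteroendocrine-like cells was 1.62-fold higher in the library labelled NFKO. In goblet-like cells the enteroendocrine list stood at 44.2 and 137 CPM (3.09-fold) and the Paneth list at 18005 and 11655 CPM (0.647). The part of other cell types in the ratios of these classes was not tested either. Plasma cell markers, from cells rich in these same genes, summed to between 3.99 and 11.3 CPM over the 3 classes, with Tnfrsf17 and Iglc2 at 0 UMIs in each.

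The wider list of 74 endoplasmic reticulum genes had few calls between the libraries in goblet-like, Paneth-like and enteroendocrine-like cells and more in tuft-like cells. Xbp1, the factor spliced by IRE1, was at 355 and 353 CPM in the goblet-like class (0.994), 91.0 and 109 in Paneth-like (1.2005) and 229 and 206 in enteroendocrine-like cells (0.901). In goblet-like cells 0 of 55 were higher and 1 lower past 1.5-fold (3.76% and 3.17% of all genes), Ppp1r15a, the phosphatase subunit that ends the PERK signal (61.4 and 32.3 CPM, 0.525). Edem2 (1.21), Derl2 (1.18) and Sec11a (1.17) were highest and, after Ppp1r15a, Uggt1 (0.803) and Txndc11 (0.835) lowest. Paneth-like cells had 2 of 35 higher, Asns (1.61) and Edem2 (1.55), followed by Erp44 (1.49), and 0 lower (6.61% and 3.46% of all genes), with Sec62 (1.01), Srpr (1.09) and Srp9 (1.11) at the low end. In enteroendocrine-like cells 0 of 52 were higher and 1 lower (2.65% and 2.98%), again Ppp1r15a (129.6 and 84.4 CPM, 0.651). Selenos (1.45), Ostc (1.43) and Erp44 (1.36) led there, and Ppp1r15b (0.836) and Txndc11 (0.855) were next to lowest.

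In stem-like cells 1 of 46 was higher and 0 lower (2.97% and 2.87% of all genes), with Edem2 (1.54), Derl2 (1.45) and Asns (1.42) at the top and Uggt1 (0.827), Sec63 (0.828) and Vcp (0.861) at the bottom. Cycling cells had 1 of 57 higher and 0 lower (3.38% and 3.28%), led by Edem2 (1.53), Derl2 (1.404) and Asns (1.38), with Ppp1r15b (0.724), Uggt1 (0.758) and Vcp (0.831) lowest. In enterocyte-like cells 1 of 45 was higher, Sec24d (1.69), and 4 lower (13.2% and 6.08%), with Sec31a (1.42) and Surf4 (1.31) next and Txndc5 (0.561), Rpn1 (0.576) and Uggt1 (0.605) lowest. Tuft-like cells had 13 of 45 higher and 2 lower (22.5% and 14.3%), from Sec13 (2.60), Derl2 (2.12) and Sec11a (1.98) to Ppp1r15b (0.514), Ero1lb (0.647) and Rpn1 (0.741). Xbp1 had ratios of 1.03 in stem-like, 0.952 in cycling, 0.866 in enterocyte-like and 0.992 in tuft-like cells.

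Against enteroendocrine-like cells, 21 of 58 genes of the wider list were at least 2-fold higher in goblet-like cells in both libraries and 2 lower, beside 10.2% and 31.5% of all genes. Creb3l4, a membrane-bound factor of the CREB3 family, had the highest ratios (37.5 and 34.4), followed by Selenos (13.4 and 9.20) and Sec11c (8.27 and 6.87), and Tmx1 (0.3603 and 0.311), Ppp1r15a (0.474 and 0.382) and Mbtps1 (0.534 and 0.565) the lowest. Xbp1 was at 1.55 and 1.71. In Paneth-like cells 2 of 48 were higher and 15 lower, beside 2.20% and 83.0%. Selenos (5.25 and 4.43), Sec11c (3.496 and 3.82) and Edem2 (1.48 and 1.78) led, Tmx1 (0.165 and 0.161), Mbtps1 (0.181 and 0.199) and Ppp1r15a (0.224 and 0.208) were lowest, and Xbp1 was at 0.398 and 0.530. In the Ido1 and Zg16 goblet cluster 22 of 54 were at least 2-fold lower and 0 higher than in the other goblet-like clusters, beside 30.9% and 8.04%. Mogs (0.216 and 0.247), Srp19 (0.275 and 0.246) and Ost4 (0.276 and 0.266) were lowest, Edem3 (1.90 and 2.66), Ppp1r15b (1.39 and 1.699) and Sec31a (1.1957 and 0.762) highest, and Xbp1 stood at 0.806 and 0.889.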

How the data were processed

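Single-cell RNA sequencing was analysed in 2 libraries of sorted small intestinal cells. The authors deposited raw counts of UMIs per gene and barcode (matrix, gene and barcode lists), which the submitters' processing notes credit to Cell Ranger 5.0.1 and build mm10, and the study's methods name Seurat for later steps. Barcodes with at least 500 genes and 1000 UMIs were retained if mitochondrial transcripts made up no more than 25%. Scrublet (scanpy 1.11.5) scored doublets, and because its own threshold marked 2 and 0 cells, the highest scores were removed at 0.8% per 1000 barcodes (126 and 340 cells). Seurat 5.3.0 in R 4.3.3 clustered the cells (2000 variable genes, 30 principal components, 20 neighbours, resolution 0.8), leaving out the 42 genes, the wider list of 74 and 10 others (127 gene records).

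A cluster was named when at least 3 markers of a cell type were at least 2-fold higher and present in at least 10% of its cells. UMIs were summed over each class in each library (Python 3.11.15, numpy 2.4.6, pandas 2.3.3, scipy 1.17.1). CPM carry exact Poisson intervals and ratios exact binomial intervals, both for counting error only. Genes needed 50 CPM on 1 side and 100 UMIs over both sides. With 1 library per group no test or p-value was computed. All 42 genes are named, with levels and ratios for those past 1.5-fold between libraries or 2-fold between classes and intervals for a part of them. From the wider list, Xbp1 and the 3 highest and lowest of each comparison are named, by the mean of both libraries' log2 ratios between classes. Values without single clusters were added after seeing the data. Alternatives varied the size factors, totals, cell weights, filters, doublet removal, clustering, minimum and fold thresholds. The scripts were tested on simulated counts. The 42 genes, the lists and the comparisons were chosen with earlier results of these data known.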

Additional observations from a re-analysis of the deposited data

Results flagged for a closer look

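The summed level of the 42 genes in the library labelled NFKO over WT was below 1 in goblet-like cells (0.943, 0.940 to 0.947) and also, at a lower value, in the enterocyte-like class (0.823, 0.814 to 0.832), and above 1 in the 5 other classes, from 1.04 in enteroendocrine-like to 1.13 in Paneth-like cells. The difference between classes was not tested, since each group was 1 library. Both classes changed their make-up between the libraries. The Ido1 and Zg16 cluster, low in these genes, held 89 of 912 goblet-like cells in WT and 792 of 1765 in the other library, and the Apoa4 and Apoa1 cluster, low among enterocyte-like cells, 122 of 252 and 240 of 347. The part of these shifts in the other classes was not tested.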

How the results depend on the processing

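No paired analysis was possible because each group was 1 library. The values below are given for goblet-like, Paneth-like and enteroendocrine-like cells, first as the summed ratio of the library labelled NFKO over WT and then as the ratio of goblet-like to enteroendocrine-like cells. With median-of-ratios size factors the Paneth-like sum was 1.01 (0 genes higher and 2 lower, with 3.67% and 4.93% of all genes), the enteroendocrine-like sum 1.07 (2 higher, with 3.15%), goblet-like over enteroendocrine-like 3.62 in WT and 3.19 in the other library (29 genes higher), and 25 genes were higher in Paneth-like than enteroendocrine-like cells. With the same weight for each cell the sums were 0.846, 0.917 and 1.05, with 0 Paneth-like genes higher and 2 lower (3.85% and 4.596% of all genes), Ssr2 at 0.984 and Spcs1 at 0.959 in goblet-like cells, class ratios of 2.10 and 1.69, and 7 genes higher in Paneth-like than enteroendocrine-like cells. Totals without the 76 abundant genes gave 0.987 (0 lower, with 2.43% of all genes), 1.02 (0 higher and 2 lower, with 3.94% and 3.904%) and 1.102 (2 higher, with 3.86%), class ratios of 2.36 and 2.11, and 23 genes higher in Paneth-like cells. In male-typed cells alone (13 Paneth-like cells in the library labelled NFKO) the sums were 0.837 (3 lower, with 7.04% of all genes), 1.52 (19 of 35 higher and 2 lower, with 66.1% and 2.67% of all genes) and 0.927 (6 lower, with 6.83%), Kdelr2 in goblet-like cells was at 0.987, and 3 genes were higher in Paneth-like than enteroendocrine-like cells.

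Every deposited barcode gave 0.934, 1.102 and 1.05 and class ratios of 2.07 and 1.85. A strict filter gave a WT class ratio of 2.19. Without doublet removal the Paneth-like sum was 1.12 and the class ratios 2.12 and 1.91. With the genes kept in the clustering, the Paneth-like sum was 1.103, the enteroendocrine-like 1.05 and the WT class ratio 2.19. Resolution 0.4 gave 0.938, 1.18 (3 higher and 0 lower, with 8.37% and 4.05% of all genes) and 1.05 and a WT class ratio of 2.21. Without Hspa5, Sec61b and Calr the sums were 0.9502, 1.15 and 1.09 and the class ratios 2.30 and 2.02. With no minimum level 2 Paneth-like genes were higher in the library labelled NFKO and 4 higher than in enteroendocrine-like cells. At 2-fold between libraries the counts were 0 lower in goblet-like and 0 higher and 0 lower in Paneth-like cells, and at 1.5-fold between classes 4 genes were higher in Paneth-like cells.

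Settings chosen after seeing the data left out single clusters. Without the Ido1 and Zg16 cluster the goblet-like sum was 1.11 and Hspa5 1.06, and without the Edn2 and Areg cluster they were 1.04 and 1.13, with Ddit3 at 1.78. The Edn2 and Areg cluster held 590 cells of WT and 17 of the other library. The defensin-led Paneth-like cluster alone gave 1.30 and the other 0.934. Without the Tac1 cluster the enteroendocrine-like sum was 1.05, the class ratio in the library labelled NFKO 1.93 and Atf6 in goblet-like over enteroendocrine-like WT cells 1.06. Another seed and a clustering without heat shock genes moved none of the sums or counts beyond their interval or 1.5 times. The fewer genes or cells in a setting follow from its construction, and otherwise the cause was not tested. With 1 library per group, the spread between mice is unknown.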

Other observations

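The wider list held the stress element in 1 of 60 matched promoters (1.67%), that of Derl3. Of the 2 unnamed clusters, one led by Rpgrip1 and Lars2 (31 WT cells and 280 of the library labelled NFKO) held 1.21% and 1.56% of its UMIs in the 42 genes, and one led by Nnat and Slfn8 (140 and 109 cells) held 0.654% and 0.720%.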
